A study of Mus musculus with 2 samples.

Results

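A set of 8 genes of engulfment was followed through 2 single-cell libraries of the mouse basolateral amygdala. The genes are the receptors Trem2, Mertk, Axl and Megf10, the adaptor Tyrobp, and the secreted bridging ligands Gas6, Pros1 and Mfge8. They were chosen by name, out of 25120 gene columns over both libraries, and all 8 had a column in both. The FGF21 group was a pool of 3 adult C57BL/6 mice treated with the hormone FGF21, which comes mainly from the liver. Each mouse received 1 mg/kg daily, 1 dose per day over 3 days. The vehicle group was a pool of 3 adult C57BL/6 mice given vehicle on the same schedule. In both groups the amygdala was dissociated with pronase in the presence of the transcription blocker actinomycin D, and viable cells were sorted for the red fluorescent protein tdTomato. What drives tdTomato in these mice is not given in the sources used here, and the sort decides which cells were seen. Each pool gave 1 library, so no difference between FGF21 and vehicle could be tested, and every interval below is a 95% interval that covers counting error only.

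Engulfment in the brain removes dying cells, debris and synapses. Mertk and Axl are receptor tyrosine kinases of the TAM family that do not see their target directly. The vitamin K-dependent proteins Gas6 and Pros1, which bind phosphatidylserine exposed on dying cells, bridge them to it. Pros1 is known as a ligand of Mertk and Tyro3, and Gas6 of all TAM receptors, Axl most tightly. Mfge8 bridges phosphatidylserine to integrins. Trem2 binds lipids and lipoproteins and signals through Tyrobp, also called DAP12, an adaptor shared by many myeloid receptors. Megf10 is an engulfment receptor known from astrocytes, where it works beside Mertk in the removal of synapses.

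The FGF21 library held 2455 barcodes with 14585503 unique molecules (UMIs), against 2925 barcodes with 11130580 UMIs in the vehicle library. After filtering, 1935 FGF21 cells with a median of 6838 UMIs and 2337 vehicle cells with a median of 4232 UMIs were used. Of the barcode numbers, 12 occurred in both libraries. Cells were clustered without the 8 genes and without the other pathway genes described here, and clusters were called "-like" from fixed markers. There were 910 FGF21 and 1433 vehicle microglia-like cells, 586 and 378 oligodendrocyte precursor-like cells, 192 and 99 astrocyte-like cells, and 40 and 182 mural-like cells (pericytes and smooth muscle). Oligodendrocyte-like cells numbered 82 and 41, and differentiating oligodendrocyte precursor-like cells 38 and 33. Smaller classes were border macrophage-like (13 and 37), endothelial-like (16 and 32), choroid plexus-like (16 and 28) and erythroid-like cells (20 and 46). No cluster was neuron-like in this clustering, but a neuron-like cluster of 18 to 109 cells appeared in each of the 5 alternative filters and clusterings run. Microglia-like cluster 3, described next, had the neuron list as its second-best marker list (z 1.21, against 2.10 for microglia) and Penk first among its leading genes. The 10 neuron markers summed to 150.9 to 782.6 CPM (UMI counts scaled to the summed UMIs of the class) over the 10 classes in the FGF21 library and to 119 to 802.6 CPM in the vehicle library. Microglia-like cells fell into 2 clusters that almost separated the libraries: cluster 3 held 879 FGF21 and 29 vehicle cells, and cluster 11 held 31 FGF21 and 1404 vehicle cells. Of these, 78 FGF21 and 15 vehicle cells of cluster 3, and 14 and 11 of cluster 11, were neuron-like in at least 1 of the alternatives. The filter of at least 1000 UMIs alone gave the 14 FGF21 cells of cluster 11, and it gave 71 FGF21 cells of cluster 3. In all 5 alternatives only 10 FGF21 and 7 vehicle cells were neuron-like, each of them in cluster 3. Oligodendrocyte precursor-like cells did likewise, with 514 FGF21 and 19 vehicle cells in cluster 5, and 62 and 356 in cluster 6.

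Every class held some UMIs of genes that mark other classes, and these are called free RNA here, the usual name for RNA outside intact cells. The summed level of the 10 microglia markers was 38453 CPM in microglia-like cells of the FGF21 library and 48589 CPM in those of the vehicle library. In the non-myeloid classes it was 5875 to 8023 CPM in the FGF21 library and 7341 to 12593 CPM in the vehicle library. For each class and library a free RNA share was therefore estimated from markers of unrelated classes, and is given beside each value as the percentage of the gene's UMIs that it accounts for. A value above 100% means that the estimate exceeded the count. Of 137 values of the 8 genes outside their main source class, 87 were more than 50% free RNA by this estimate and 42 were above 100%, so the estimate is coarse.

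Promoter windows of 300 bases (RefSeq, GRCm38.p6) were taken for 6 of the 8 genes, not for Tyrobp or Megf10. The 3 printed belong to a receptor with its highest level in microglia-like cells (Trem2, chr17:48346151-48346450, plus strand), to a receptor high in both microglia-like and astrocyte-like cells (Mertk, chr2:128698665-128698964, plus strand) and to a ligand of astrocyte-like and mural-like cells (Mfge8, chr7:79149011-79149310, minus strand). Capitals mark GAGGAA, the core of the PU-box bound by ETS factors such as PU.1, and GGGCGG, the GC-box, on either strand, where a match on the opposite strand reads TTCCTC or CCGCCC. Matches overlap in none of the 3 windows printed, while 2 GC-box matches of Pros1 overlap.
Trem2: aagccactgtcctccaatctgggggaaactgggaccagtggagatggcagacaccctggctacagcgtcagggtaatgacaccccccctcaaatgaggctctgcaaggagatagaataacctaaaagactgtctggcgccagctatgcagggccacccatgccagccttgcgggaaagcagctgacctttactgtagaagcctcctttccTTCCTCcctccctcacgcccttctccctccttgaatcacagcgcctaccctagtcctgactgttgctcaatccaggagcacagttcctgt
Mertk: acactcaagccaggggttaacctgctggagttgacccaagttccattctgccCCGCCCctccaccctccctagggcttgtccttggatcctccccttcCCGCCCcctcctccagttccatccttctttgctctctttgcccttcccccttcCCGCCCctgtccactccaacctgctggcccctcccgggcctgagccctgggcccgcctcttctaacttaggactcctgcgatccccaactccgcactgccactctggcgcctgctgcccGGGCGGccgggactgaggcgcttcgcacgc
Mfge8: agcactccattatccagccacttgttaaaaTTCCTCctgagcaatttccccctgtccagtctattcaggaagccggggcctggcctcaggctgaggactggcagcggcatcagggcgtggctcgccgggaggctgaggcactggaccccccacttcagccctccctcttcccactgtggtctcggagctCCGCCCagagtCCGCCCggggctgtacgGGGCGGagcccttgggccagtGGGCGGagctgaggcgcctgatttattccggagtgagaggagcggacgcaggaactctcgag
The Trem2 window held 1 GAGGAA, no GGGCGG and 5 CpG dinucleotides. The Mertk window held no GAGGAA, 4 GGGCGG and 14 CpG dinucleotides, and the Mfge8 window held 1 GAGGAA, 4 GGGCGG and 17 CpG dinucleotides. Among all 32851 promoter windows of this length, 28.3% held GAGGAA and 35.7% held GGGCGG, so these matches are common and are given as a description. The Axl window held 1 GAGGAA and 2 GGGCGG, and the windows of Gas6 and Pros1 held no GAGGAA and 4 and 5 GGGCGG.

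Trem2 was highest in microglia-like cells, at 1261 CPM in the FGF21 library (1232 to 1291) and 1298 CPM in the vehicle library (1269 to 1327). Border macrophage-like cells had 624 CPM in the FGF21 library (408 to 914) and 463 CPM in the vehicle library (332 to 629). The intervals of these classes do not overlap in either library. Endothelial-like cells, at 507 CPM in the FGF21 (331 to 743) and 569 CPM in the vehicle library (394 to 795), overlapped border macrophage-like cells. There free RNA was estimated at 46.6% and 49.0%, and 1 vehicle cell gave 41.2% of the 34 UMIs. Erythroid-like cells, which should lack Trem2, overlapped them too, at 554 CPM (351 to 831) and 380 CPM (266 to 527). The second place was therefore not resolved. In microglia-like cells the median cell had 7 Trem2 UMIs in the FGF21 and 5 in the vehicle library, and the highest had 29 and 20. Microglia-like cells held 71.1% of all Trem2 UMIs of the FGF21 library and 84.4% of those of the vehicle library. The 8 non-myeloid classes read 293 to 554 CPM in the FGF21 library and 215 to 569 CPM in the vehicle library, of which free RNA accounted for 44.6% to 87.1% and 49.0% to 92.8%.

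Shares of cells with a Trem2 UMI were read at equal depth and beside a class that should lack it. Without thinning, 97.8% of FGF21 and 95.7% of vehicle microglia-like cells had one, at median depths of 6015.5 and 4175 UMIs. So did 92.5% of FGF21 and 81.7% of vehicle oligodendrocyte precursor-like cells, at median depths of 8930.5 and 6517 UMIs. When every cell was thinned to 2000 UMIs, which left out 31 FGF21 and 76 vehicle microglia-like cells, the shares in microglia-like cells were 89.3% (87.1% to 91.3%) and 88.9% (87.1% to 90.5%). In thinned oligodendrocyte precursor-like cells they were 45.7% and 39.0%. Thinned erythroid-like cells, which should lack Trem2, had it in 6 of 11 FGF21 cells and 14 of 23 vehicle cells, 54.5% and 60.9%, at median depths of 2256 and 1989 UMIs before thinning. Erythroid markers took 55.3% of the UMIs of erythroid-like cells in the FGF21 and 69.3% in the vehicle library, so fewer UMIs were left there for any other RNA and the shares of that class are low estimates of background. The shares in oligodendrocyte precursor-like cells lay below those of erythroid-like cells, but the erythroid-like intervals were wide, at 23.4% to 83.3% and 38.5% to 80.3%. Free RNA was estimated at 73.3% of the Trem2 UMIs of FGF21 and 81.0% of those of vehicle oligodendrocyte precursor-like cells. Whether these cells exceed background was not resolved.

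Among the 10 classes with at least 10 cells in each library, Tyrobp had its highest levels in microglia-like and border macrophage-like cells. The 7 FGF21 and 5 vehicle neutrophil-like cells read 1487 and 2570.2 CPM. Border macrophage-like cells had 1464 CPM in the FGF21 and 1299.6 CPM in the vehicle library, and microglia-like cells had 1229 CPM (1199.8 to 1258) and 1114 CPM (1088 to 1142). The intervals of border macrophage-like cells, 1120.0 to 1881 and 1073 to 1560 CPM, include or overlap those of microglia-like cells, so the order of the 2 classes was not resolved. Thinned microglia-like cells had a Tyrobp UMI in 87.4% of the FGF21 and 86.2% of the vehicle library, against 27.1% and 29.7% of oligodendrocyte precursor-like cells and 18.2% and 17.4% of erythroid-like cells. The 8 non-myeloid classes read 78.0 to 177 CPM in the FGF21 library and 106 to 268 CPM in the vehicle library. Free RNA was estimated at 100% or more of these UMIs in all 8 classes of the FGF21 library, and at 77.4% to 156% in the vehicle library.

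The proportion of Trem2 to Tyrobp UMIs differed between classes. It was 1.03 (0.99 to 1.06) in FGF21 and 1.16 (1.13 to 1.20) in vehicle microglia-like cells. Border macrophage-like cells had 0.43 (0.26 to 0.68) in the FGF21 and 0.36 (0.24 to 0.51) in the vehicle library. Oligodendrocyte precursor-like cells had 2.18 (2.01 to 2.38) and 1.59 (1.41 to 1.79), whereas 2.38 (2.00 to 2.83) and 1.84 (1.39 to 2.45) were found in astrocyte-like cells. Over all used cells it was 1.20 in each library, so these non-myeloid proportions lie above that of the library and the myeloid ones below it. In 686 of 879 thinned FGF21 microglia-like cells, 78.0% (75.2% to 80.7%), and in 1048 of 1357 vehicle cells, 77.2% (74.9% to 79.4%), both genes were detected. The product of the single shares was 78.0% and 76.6%, inside both intervals.

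Mertk was carried by microglia-like and astrocyte-like cells. Microglia-like cells had 519 CPM in the FGF21 library (501 to 538) and 811 CPM in the vehicle library (788 to 834), while 468 CPM (430.0 to 508) and 681 CPM (603 to 766) were found in astrocyte-like cells. Microglia-like cells were above astrocyte-like cells without overlap of the intervals in the vehicle library, and with a narrow overlap in the FGF21 library. Free RNA accounted for 17.7% of these UMIs in microglia-like cells of each library and for 28.7% and 25.9% in FGF21 and vehicle astrocyte-like cells. Thinned to 2000 UMIs, 63.0% of FGF21 and 76.9% of vehicle microglia-like cells had a Mertk UMI, and 53.0% and 63.6% of astrocyte-like cells did. Thinned oligodendrocyte precursor-like cells had it in 15.8% and 29.7%, and erythroid-like cells in 1 of 11 and 5 of 23, 9.09% and 21.7%.

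Other classes carried less Mertk. Border macrophage-like cells had 312 CPM in the FGF21 and 350.3 CPM in the vehicle library. Endothelial-like cells had 390.0 CPM and 184 CPM, but a single FGF21 cell gave 70.0% of the 20 UMIs, and astrocyte markers in that class summed to 7078 CPM in the FGF21 and 1003 CPM in the vehicle library. Their part in the value was not tested. In oligodendrocyte precursor-like cells Mertk read 79.8 CPM in the FGF21 and 204 CPM in the vehicle library, of which the free RNA estimate was 124% and 74.5%. Choroid plexus-like cells of the FGF21 library had 1 Mertk UMI among 152468, against 17 among 209785 in the vehicle library.

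Among the 10 classes with at least 10 cells in each library, Axl was highest in mural-like cells and not in microglia-like or border macrophage-like cells. The 7 FGF21 cells of the mixed neutrophil-like class read 459.6 CPM, from 17 UMIs, and which of its cell types carried Axl was not resolved. Mural-like cells had 332 CPM in the FGF21 library (248 to 435) and 417 CPM in the vehicle library (363 to 476), and 77.5% and 54.4% of them had a UMI. Astrocyte-like cells had 128 CPM (108 to 150) in the FGF21 and 149.9 CPM (115 to 193) in the vehicle library, and oligodendrocyte precursor-like cells 46.2 and 48.9 CPM. In microglia-like cells Axl read 24.5 CPM in the FGF21 and 14.4 CPM in the vehicle library, of which 60.3% and 87.6% was estimated as free RNA. After thinning, the share of cells with Axl was 38.9% and 49.4% in mural-like cells, 20.1% and 26.0% in astrocyte-like cells, and 4.44% and 2.43% in microglia-like cells. Oligodendrocyte-like cells had it in 5.00% of 80 thinned FGF21 cells and in 0 of 38 vehicle cells, which allows up to 7.89%. Axl was not found in FGF21 border macrophage-like cells, where 0 of 41662 UMIs allows up to 72.0 CPM, and vehicle border macrophage-like cells had 3 UMIs.

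Megf10 was a gene of astrocyte-like cells and the oligodendrocyte lineage. Astrocyte-like cells had 134 CPM in the FGF21 (114 to 157) and 101 CPM in the vehicle library (72.3 to 137). Oligodendrocyte-like cells had 93.8 CPM (73.6 to 118) and 41.4 CPM (21.4 to 72.4), and oligodendrocyte precursor-like cells 37.8 CPM (32.7 to 43.4) and 42.6 CPM (34.9 to 51.5). Astrocyte-like and oligodendrocyte-like cells overlapped within each library. In mural-like cells Megf10 was at 1 UMI in each library, and after thinning 0 of 36 FGF21 and 0 of 156 vehicle cells had it, which allows up to 8.33% and 1.92%. Thinned astrocyte-like cells had it in 18.3% and 16.9%, oligodendrocyte precursor-like cells in 6.01% and 6.68%, and microglia-like cells in 2.84% and 1.11%.

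**Figure D1:**
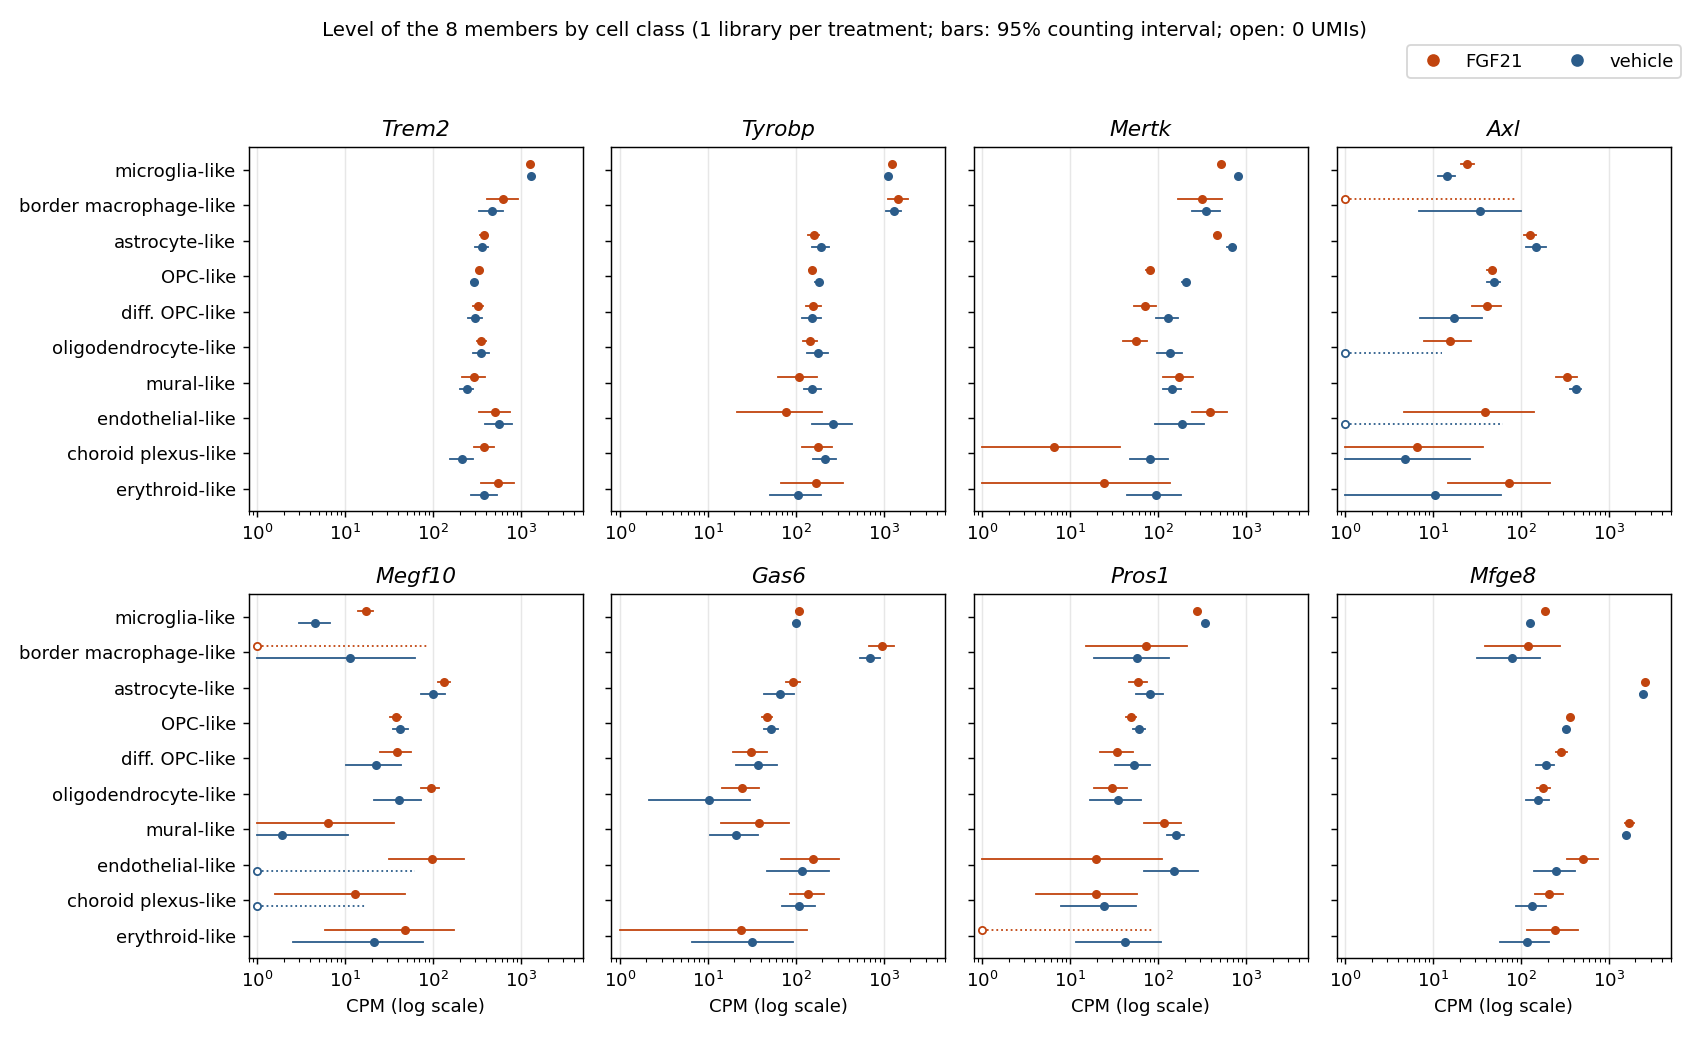
Level of each of the 8 genes in 10 cell classes, in CPM on a log axis, for the FGF21 library (upper point) and the vehicle library (lower point). Points are levels, bars are 95% counting intervals, and open points at the left edge with dotted bars mark 0 UMIs. Trem2 peaks in microglia-like cells, Tyrobp in microglia-like and border macrophage-like cells, Axl in mural-like cells at 332 and 417 CPM, Gas6 in border macrophage-like cells at 960.1 and 700.7 CPM, and Mfge8 in astrocyte-like cells at 2566 and 2413 CPM.

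Gas6 was highest per UMI in border macrophage-like cells, at 960.1 CPM in the FGF21 library (686 to 1307) and 700.7 CPM in the vehicle library (537 to 898). These rest on 40 UMIs in 13 FGF21 cells and 62 UMIs in 37 vehicle cells. Of the thinned cells, 7 of 8 and 14 of 19 had a Gas6 UMI, 87.5% and 73.7%. The class was named after a mixed cluster had been split once more, a step added after the clusters were seen. In the unsplit cluster Gas6 was 396 CPM in the FGF21 and 508 CPM in the vehicle library, still the highest value of Gas6. With doublets kept, border macrophage-like cells had 509 CPM in the FGF21 and 584 CPM in the vehicle library, but there too the cluster, of 62 cells, was not split, so doublets and splitting changed together.

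Most Gas6 UMIs nonetheless came from microglia-like cells, which are far more numerous. They held 56.1% of the Gas6 UMIs of the FGF21 and 66.9% of those of the vehicle library, at 109 CPM (100.4 to 118) and 100.5 CPM (92.6 to 109). Free RNA was estimated at 22.7% and 21.7% of these. Endothelial-like cells had 156 and 117 CPM, and choroid plexus-like cells 138 and 109.6 CPM, from 7 to 23 UMIs each. Their intervals overlap those of microglia-like cells. Astrocyte-like cells had 93.7 CPM in the FGF21 and 66.4 CPM in the vehicle library.

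Pros1, the other TAM ligand, was highest in microglia-like cells. They had 275 CPM in the FGF21 library (261 to 289) and 336 CPM in the vehicle library (321 to 351), and held 79.2% and 85.4% of its UMIs. Mural-like cells had 115 CPM (68.1 to 181) and 159 CPM (126 to 197), with 33.5% estimated as free RNA. Their intervals take in border macrophage-like cells of the FGF21 library, at 72.0 CPM from 3 UMIs. They also take in endothelial-like cells of the vehicle library, at 150.5 CPM from 9 UMIs. The second place was therefore not resolved. Thinned microglia-like cells had a Pros1 UMI in 37.4% and 43.9%, mural-like cells in 16.7% and 28.2%, oligodendrocyte precursor-like cells in 8.93% and 10.4%, and erythroid-like cells in 0 of 11 and 1 of 23. In oligodendrocyte precursor-like and astrocyte-like cells free RNA was estimated at 86.7% to 109% of the Pros1 UMIs. In border macrophage-like cells, where Gas6 was highest, Pros1 had 3 UMIs in the FGF21 and 5 in the vehicle library.

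Mfge8 was made by astrocyte-like and mural-like cells. Astrocyte-like cells had 2566 CPM in the FGF21 (2476 to 2658) and 2413 CPM in the vehicle library (2265 to 2569). Mural-like cells had 1703 CPM (1505 to 1920.4) and 1543 CPM (1439 to 1653.5), below astrocyte-like cells without overlap in each library. The median astrocyte-like cell had 15 Mfge8 UMIs in the FGF21 and 8 in the vehicle library, with 60 and 33 in the highest. After thinning, 98.8% and 97.4% of astrocyte-like cells and 94.4% and 92.3% of mural-like cells had it, against 51.0% and 46.5% of oligodendrocyte precursor-like cells and 36.4% and 21.7% of erythroid-like cells. Oligodendrocyte precursor-like cells had 358 CPM in the FGF21 and 321 CPM in the vehicle library, with 45.6% and 29.0% estimated as free RNA. In microglia-like cells, at 188 and 128 CPM, that estimate was 80.5% and 68.7%.

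**Figure D2:**
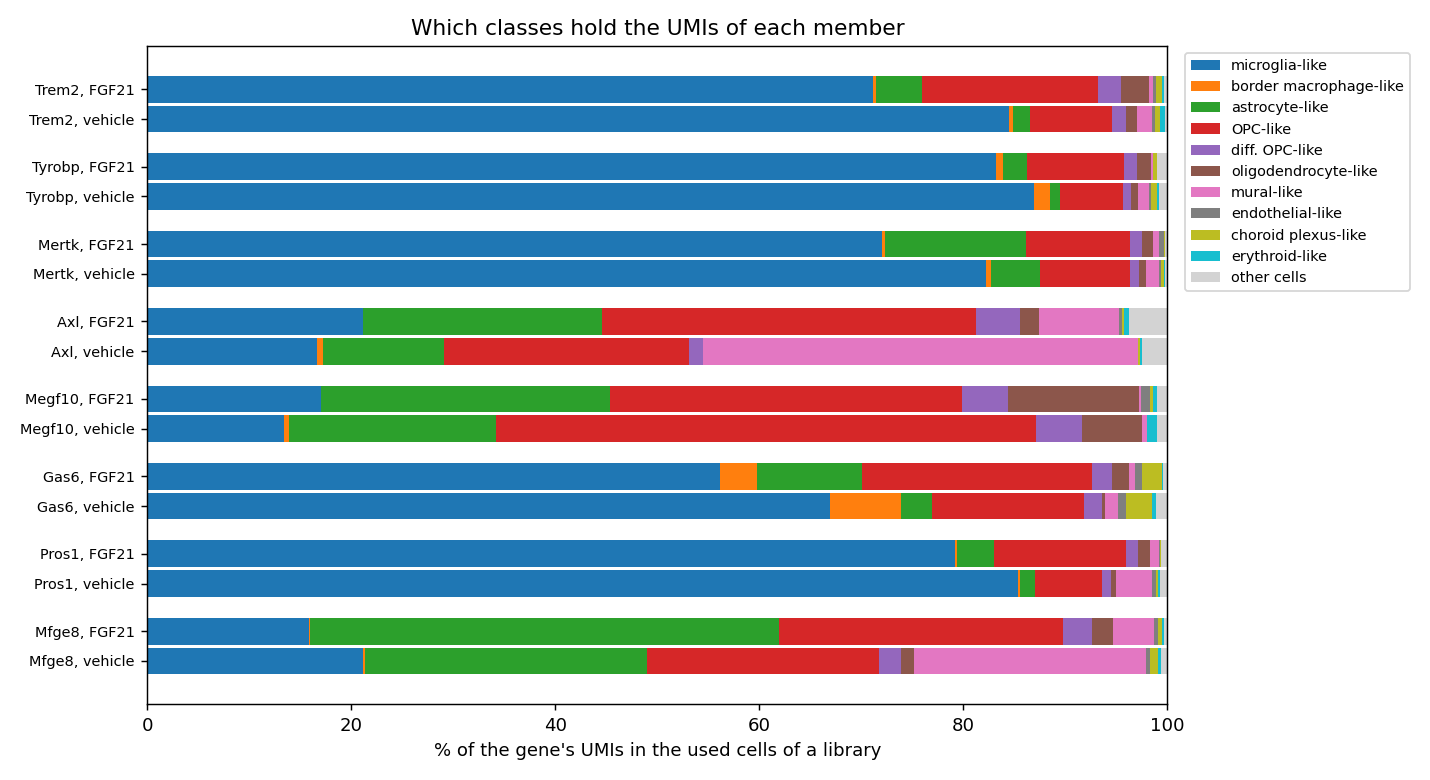
Share of each gene's UMIs found in each class, in percent of its UMIs in the used cells of a library, with the FGF21 bar above the vehicle bar for each gene. Microglia-like cells hold 71.1% and 84.4% of Trem2 and 15.8% and 21.2% of Mfge8, and mural-like cells hold 7.91% of Axl in the FGF21 and 42.6% in the vehicle library. The share depends on how many cells of a class a library held as well as on their level.

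UMIs of TAM receptors and their ligands were found together in part of the microglia-like cells. Of thinned cells, 200 of 879 FGF21 and 454 of 1357 vehicle microglia-like cells had UMIs of both Mertk and Pros1, 22.8% (20.0% to 25.7%) and 33.5% (30.9% to 36.0%). The product of the single shares was 23.6% and 33.8%. For Mertk and Gas6 the joint share was 11.1% in the FGF21 and 13.5% in the vehicle library, with products of 11.5% and 12.5%. In astrocyte-like cells these TAM pairs were rarer. Both Mertk and Gas6 were in 7.93% of FGF21 and 6.49% of vehicle cells, and both Mertk and Pros1 in 7.93% and 9.09%. Free RNA was estimated at 102% of the Pros1 UMIs there. Of pairs that are not a TAM receptor with its ligand, 52.4% of FGF21 and 61.0% of vehicle astrocyte-like cells had both Mertk and Mfge8. Both Megf10 and Mertk were in 12.2% and 13.0%. Over 9 gene pairs, each in astrocyte-like, microglia-like and oligodendrocyte precursor-like cells of both libraries, the product lay outside the interval of the joint share in 0 of 54 cases. At this depth no departure from the single shares was detectable. Where a gene was in nearly all cells, as Mfge8 in 98.8% of FGF21 and 97.4% of vehicle astrocyte-like cells, the joint share could hardly differ from the product. The count over all pairs therefore cannot show that the genes were detected independently. At least 1 UMI of a receptor other than the adaptor and at least 1 UMI of a ligand were found together in 64.4% of FGF21 and 61.4% of vehicle microglia-like cells after thinning. In astrocyte-like cells this held for 87.2% and 83.1%, and likewise for 66.7% and 73.1% of mural-like cells, 36.9% and 35.0% of oligodendrocyte precursor-like cells, and 18.2% and 26.1% of erythroid-like cells, where most UMIs are of erythroid markers.

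The same class led in both libraries for each of the 8 genes. Between the libraries, genes were counted as apart when their CPM differed at least 1.5-fold and they had at least 50 UMIs in a class over both. In microglia-like cells 3 of the 8 genes were apart: Axl and Megf10 were higher and Mertk was lower in FGF21. Of all 11484 genes measured there, 18.0% were apart, 12.9% higher and 5.14% lower in FGF21. In oligodendrocyte precursor-like cells 1 of 8 was apart, Mertk, lower in FGF21, against 10.7% of 11490 genes, 5.99% higher and 4.75% lower. In astrocyte-like cells 0 of 8 were apart, against 20.0% of 6128 genes (11.9% higher, 8.14% lower), and in mural-like cells 0 of 6 measured, against 24.7% of 3035 genes (9.46% higher, 15.3% lower). With 8 members a single gene moves such a share by a large step, and nothing is read from the counts alone.

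Mertk in microglia-like cells was 519 CPM in the FGF21 and 811 CPM in the vehicle library, a ratio of 0.64 (0.61 to 0.67). Thinned cells had on average 1.08 Mertk UMIs in the FGF21 and 1.70 in the vehicle library. The log2 ratio was -0.64 with and without subtraction of free RNA. The value rests on different clusters, since cluster 3 holds most FGF21 cells and cluster 11 most vehicle cells. Within cluster 3, Mertk was 517 CPM in 879 FGF21 cells and 424 CPM in 29 vehicle cells, a ratio of 1.22 (0.90 to 1.69). Those 29 vehicle cells were unlike the other vehicle microglia-like cells: their 10 neuron markers summed to 3061 CPM, against 139 CPM in the vehicle cells of cluster 11, and Trem2 read 748 CPM in them, against 1307 CPM. Without the cells that were neuron-like in another clustering, Mertk in cluster 3 was 525 CPM in 801 FGF21 cells and 705 CPM in 14 vehicle cells, a ratio of 0.74 (0.54 to 1.06), on the other side of 1.

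Within cluster 11 Mertk was 680.5 CPM in 31 FGF21 cells and 818 CPM in 1404 vehicle cells, a ratio of 0.83 (0.63 to 1.07). Without the cells neuron-like elsewhere it was 581 CPM in 17 FGF21 cells and 820 CPM in 1393 vehicle cells, a ratio of 0.71 (0.49 to 0.99). All FGF21 cells left out here were neuron-like only with the filter of at least 1000 UMIs. The neuron markers of the FGF21 cells of cluster 11 summed to 193 CPM before and 183 CPM after leaving them out. This ratio therefore depends on 1 alternative clustering. The 31 FGF21 cells had a median of 2303 UMIs against 6084 in the other FGF21 microglia-like cells. Over all microglia-like cells the ratio without the cells neuron-like elsewhere was 0.64 (0.61 to 0.67), and 3 of 8 members were again apart, against 17.2% of all genes measured. Within cluster 3, 5 of 8 members were apart, against 55.3% of all genes measured there, and within cluster 11, 2 of 7, against 52.5%. After leaving the neuron-like cells out, these counts were 1 of 8, against 61.4%, and 2 of 7, against 58.4%, with 14 to 31 cells on the smaller side, and nothing is read from the counts within clusters. Whether the difference belongs to treatment, pool or library preparation cannot be told apart.

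Mertk was also lower in other classes of the FGF21 library. In astrocyte-like cells, which formed 1 cluster, the ratio was 0.69 (0.59 to 0.80), short of 1.5-fold, with 27.8% of UMIs estimated as free RNA. In oligodendrocyte precursor-like cells it was 0.39 (0.34 to 0.45). There it was also below 1 within both large clusters, at 0.45 (0.30 to 0.69) in cluster 5, with 514 FGF21 and 19 vehicle cells, and at 0.27 (0.15 to 0.44) in cluster 6, with 62 and 356. In oligodendrocyte-like cells the ratio was 0.41 (0.26 to 0.65). The free RNA estimates were 96.8% in oligodendrocyte precursor-like and 139% in oligodendrocyte-like cells. Mertk was 290.0 CPM over all used cells of the FGF21 and 549 CPM over those of the vehicle library. In mural-like cells the ratio was 1.20 (0.74 to 1.89), with 80.4% free RNA.

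The genes counted as higher in microglia-like cells of the FGF21 library were low there. Axl had 139 UMIs in 910 FGF21 cells and 85 in 1433 vehicle cells, a ratio of 1.70 (1.29 to 2.26), with 70.7% estimated as free RNA. Its log2 ratio of 0.76 was 2.45 after subtraction of free RNA. Megf10 had 97 and 27 UMIs, a ratio of 3.74 (2.42 to 5.96), with 82.4% free RNA, and had no value after subtraction because the estimate exceeded the vehicle count. Mfge8 was just short of 1.5-fold at 1.47 (1.34 to 1.62), and its log2 ratio of 0.56 was -0.12 after subtraction of free RNA. The levels of these 3 genes in all used cells of the FGF21 and vehicle libraries were 46.6 and 48.4 CPM for Axl, 40.5 and 19.1 CPM for Megf10, and 477 and 336 CPM for Mfge8. Markers of several other classes were also higher in FGF21 microglia-like cells, all of each list with UMIs in each library. The 11 astrocyte markers summed to 1377 CPM in FGF21 and 881 CPM in vehicle cells, the 9 oligodendrocyte markers to 1578 and 766 CPM, the 10 oligodendrocyte precursor markers to 2033 and 1184 CPM and the 10 neuron markers to 370.1 and 188 CPM. The 10 mural markers, from the class where Axl was highest, summed to 183 and 566 CPM. Their part in the results was not tested.

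Trem2, Tyrobp, Gas6 and Pros1 were less than 1.5-fold apart in microglia-like cells. Trem2 had a ratio of 0.97 (0.94 to 1.00), Tyrobp of 1.10 (1.07 to 1.14), Gas6 of 1.08 (0.97 to 1.21) and Pros1 of 0.82 (0.76 to 0.87). The intervals of Tyrobp and Pros1 exclude 1. Within cluster 3 the ratios of Trem2 and Tyrobp were 1.69 and 1.65, and within cluster 11 they were 0.78 and 0.95, resting on 29 vehicle and 31 FGF21 cells. Gas6 went in opposite directions within the clusters, at 2.71 (1.05 to 9.99) in cluster 3, from 611 FGF21 and 4 vehicle UMIs, and at 0.56 (0.18 to 1.31) in cluster 11, from 5 and 588. Pros1 was at 1.05 (0.71 to 1.61) and 0.67 (0.41 to 1.04). Without the cells neuron-like in another clustering, the ratios within cluster 3 were 1.26 (0.96 to 1.69) for Trem2, 1.17 (0.90 to 1.56) for Tyrobp, 1.41 (0.55 to 5.18) for Gas6 and 0.76 (0.48 to 1.27) for Pros1. Border macrophage-like cells gave ratios of 1.13 (0.81 to 1.55) for Tyrobp, 1.35 (0.79 to 2.26) for Trem2 and 1.37 (0.90 to 2.07) for Gas6. Oligodendrocyte-like cells had more Megf10 in FGF21, 73 UMIs in 82 cells against 12 in 41 vehicle cells, a ratio of 2.27 (1.22 to 4.58), with 13.4% free RNA. After thinning, 8.75% (3.59% to 17.2%) of FGF21 and 5.26% (0.64% to 17.7%) of vehicle oligodendrocyte-like cells had Megf10, and the intervals overlap. Mfge8 in astrocyte-like and mural-like cells had ratios of 1.06 (0.99 to 1.14) and 1.10 (0.96 to 1.27), and Axl in mural-like cells of 0.80 (0.58 to 1.08).

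**Figure D3:**
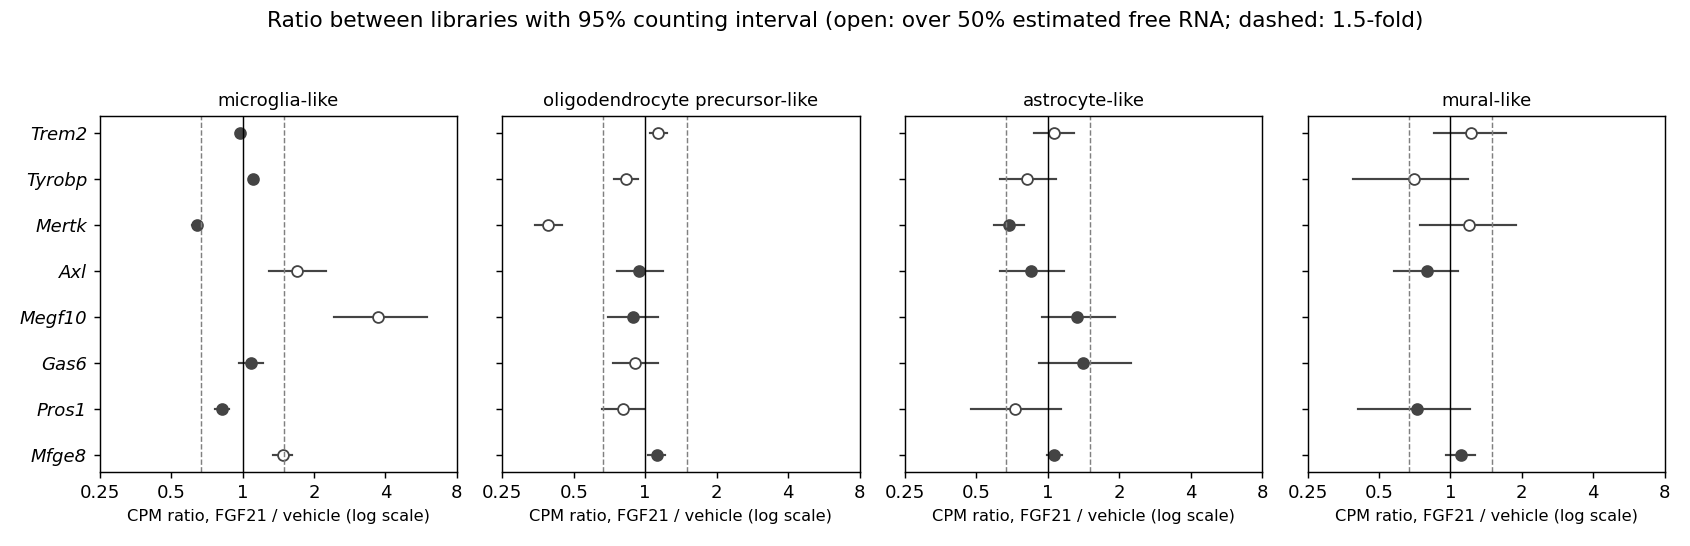
Ratio of CPM in the FGF21 library to CPM in the vehicle library on a log axis, with 95% counting intervals, for the genes with at least 50 UMIs in 4 classes. Open points have over 50% estimated free RNA and dashed lines mark 1.5-fold. Mertk lies left of 1 in oligodendrocyte precursor-like (0.39), microglia-like (0.64) and astrocyte-like cells (0.69), and the points of Axl (1.70) and Megf10 (3.74) in microglia-like cells are open.

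**Figure D4:**
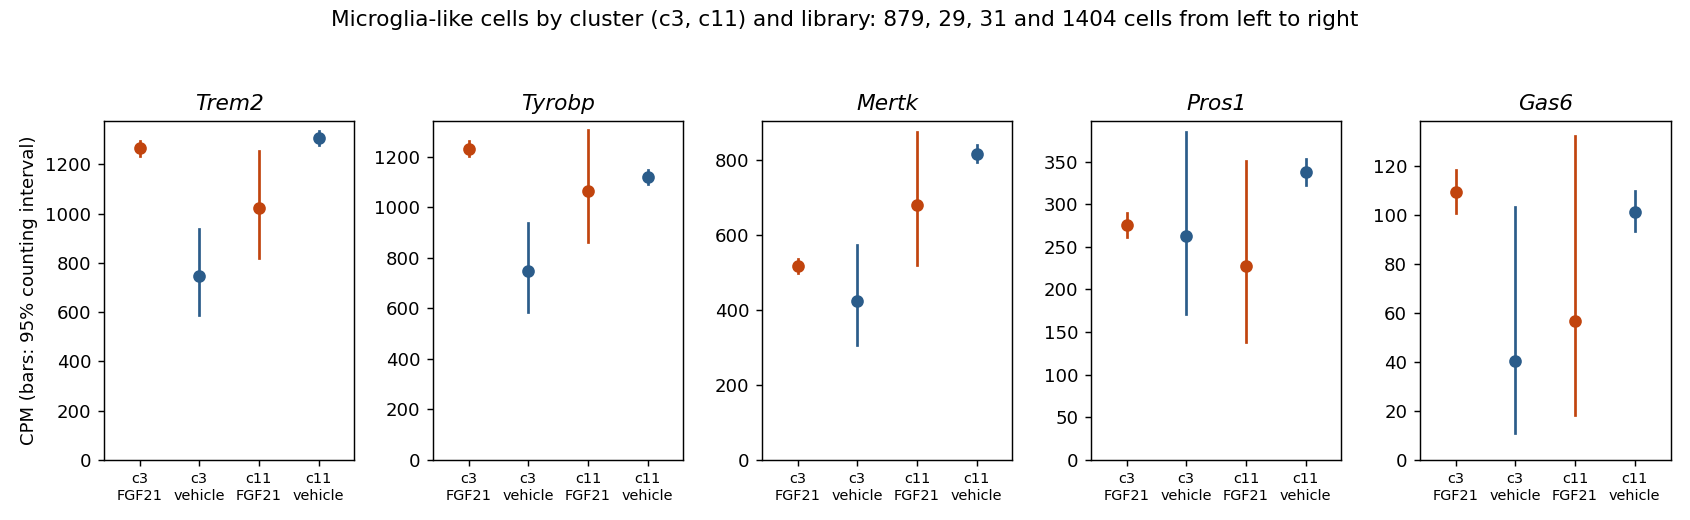
Level in CPM of 5 genes in microglia-like cells, split by cluster (c3 and c11) and library, with 95% counting intervals. For Mertk the 2 large sets differ, 517 CPM in 879 FGF21 cells of cluster 3 and 818 CPM in 1404 vehicle cells of cluster 11, and the small sets are at 680.5 CPM (cluster 11, 31 FGF21 cells) and 424 CPM (cluster 3, 29 vehicle cells, of which 15 were neuron-like in another clustering).

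Other genes of the pathway were read from lists. Of 18 other engulfment receptors 12 were measured in microglia-like cells, with 2 apart and higher in FGF21 (Adgrb1 and Tyro3) and 1 lower (Cd300lf). Of all genes measured there, 12.9% were higher and 5.14% lower. The median log2 ratio of the list was -0.05, beside 0.04 over all genes measured, and 3 of the 12 were mostly free RNA. Their sum was highest in border macrophage-like cells. There Stab1, a scavenger receptor for phosphatidylserine, had 2952 CPM in the FGF21 and 3390.2 CPM in the vehicle library, against 472 and 597 CPM in microglia-like cells. Cd36, a receptor for oxidised lipids, had 408 and 418 CPM in border macrophage-like cells and at most 24.1 CPM in any other class. Itgb5, the integrin subunit that pairs with the alpha v chain as a receptor for Mfge8, was higher in microglia-like cells, at 621 CPM in the FGF21 and 732 CPM in the vehicle library, than in border macrophage-like cells, at 336 and 305 CPM.

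Among 12 other bridging molecules and opsonins, 10 were measured in microglia-like cells, with 2 higher in FGF21 (Clu and Tub) and 0 lower. This stands beside 12.9% of all genes higher and 5.14% lower. The median log2 ratio of the list was 0.08, and 3 of the 10 were mostly free RNA. Apoe, a lipoprotein that Trem2 binds, had 12601 CPM in FGF21 and 13482 CPM in vehicle border macrophage-like cells, and 4249 and 4854 CPM in astrocyte-like cells. In microglia-like cells it had 960.5 and 674 CPM, with 46.0% free RNA. The complement opsonins C1qb and C1qc were shared by the myeloid classes: C1qb had 4563 CPM in FGF21 and 5339.7 CPM in vehicle microglia-like cells and 4056 and 5074 CPM in border macrophage-like cells, and C1qc had 3699 and 4928 CPM in microglia-like cells. The ratio of C1qc in microglia-like cells was 0.75 (0.74 to 0.76).

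The list of Tyrobp partners and downstream signalling was highest in microglia-like cells. Of 13 Tyrobp partners and downstream genes 7 were measured in microglia-like cells, none apart, beside 18.0% of all genes measured, with a median log2 ratio of -0.24. The sum of the list in microglia-like cells was 2647 CPM in the FGF21 and 3186 CPM in the vehicle library. Siglech, a Tyrobp-coupled lectin, had 1636 and 1973 CPM there, Inpp5d, a lipid phosphatase that restrains such signals, 403 and 476 CPM, and Vav1, an exchange factor for Rac, 191 and 259 CPM. Of 10 engulfment machinery genes 9 were measured in microglia-like cells, none apart, beside the same 18.0% of all genes, with a median of -0.07. The machinery list was not particular to these cells. It summed to 1760 and 1838 CPM in microglia-like, 1464 and 1605 CPM in border macrophage-like and 1306 and 1773 CPM in endothelial-like cells, and was lowest in erythroid-like cells, at 313 and 317 CPM. Rac1, the GTPase that drives the phagocytic cup, had 606 CPM in FGF21 and 524.5 CPM in vehicle microglia-like cells, Elmo1, part of the exchange factor that activates it, 353 and 370.2 CPM, and the lipid exporter Abca1 320.0 and 446 CPM. The 7 don't-eat-me genes were all measured in microglia-like cells, none apart, beside the same 18.0% of all genes, with a median of -0.25. Cd33, a lectin that binds sialic acid, had 838 and 837 CPM in microglia-like cells, and Sirpa, the receptor for Cd47, 652 and 724 CPM. Cd47 itself was highest in astrocyte-like cells, at 397 CPM in the FGF21 and 449.7 CPM in the vehicle library.

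Gas6 and Pros1 need vitamin K-dependent carboxylation, by Ggcx with vitamin K recycled by Vkorc1 and Vkorc1l1. By the mean of both libraries the 3 summed highest in oligodendrocyte precursor-like cells. Vkorc1 had 58.9 and 58.1 CPM there, Vkorc1l1 60.0 and 53.3 CPM and Ggcx 43.5 and 37.8 CPM in the FGF21 and vehicle libraries. The sum in border macrophage-like cells was higher in the FGF21 library, at 192 against 162 CPM, and lower in the vehicle library, at 79.1 against 149 CPM. In microglia-like cells 0 of the 3 carboxylation genes were apart, beside 18.0% of all genes measured, with a median of -0.20. Adam10 and Adam17, proteases known to shed Trem2, Axl and Mertk from the surface, had 209 and 281 CPM and 233 and 282 CPM in microglia-like cells of the FGF21 and vehicle libraries. Timp3, an inhibitor of such proteases, had 1579 and 1639 CPM in endothelial-like cells. It was not particular to them. Adam10, Adam17 and Timp3 together summed to 1833 and 1973 CPM in endothelial-like, 1137 and 1268 CPM in astrocyte-like and 906 and 998 CPM in mural-like cells. In astrocyte-like cells Adam10, at 70.5 and 142.5 CPM, and Adam17, at 76.3 and 120.4 CPM, were both apart and lower in FGF21, with 73.5% and 82.6% free RNA, in a class where 8.14% of all genes were lower. In oligodendrocyte precursor-like cells 2 of 10 other receptors measured were lower in FGF21 (Itgb3 and Cd300a), 1 of 7 Tyrobp partners was lower (Syk) and 1 of 9 machinery genes was higher (Abca7), beside 4.75% of all genes lower and 5.99% higher. In astrocyte-like cells 3 of 4 Tyrobp partners were lower (Siglech, Plcg2 and Syk), all mostly free RNA, and 0 of 7 machinery genes were apart, beside 11.9% of all genes higher and 8.14% lower.

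Across 20 points (10 classes in each of 2 libraries), the genes whose log CPM followed each member closely were taken from the top of 11120 ranked genes. The points share libraries and free RNA, and the Pearson r is a description. Trem2 was followed by Cyth4 (r = 0.90), Ifngr1 and Vsir, and Tyrobp by Hpgds (r = 0.98), Alox5ap and Pik3cg. Mertk was followed by Idua (r = 0.86), Sat1 and Abcd2, Axl by Carmil1 (r = 0.88), Ikzf4 and Farp1, and Megf10 by Igsf11 (r = 0.90), Ttyh1 and Igdcc4. Gas6 was followed by Dab2 (r = 0.89), Fam129a and Clec4a1, Pros1 by Tmem173 (r = 0.86) and Mef2a, and Mfge8 by Lrig1 (r = 0.97) and Atp1b2. Among the 8 genes themselves the highest r was 0.82, between Axl and Mfge8, followed by 0.69 between Trem2 and Tyrobp and 0.69 between Gas6 and Tyrobp.

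Where the genes lie was read from the GENCODE vM21 annotation of GRCm38, in which all 8 are protein-coding. Trem2 lies at chr17:48346401-48354147 and Tyrobp at chr7:30413760-30417585, both on the plus strand. Tyrobp ends 126 bases before Hcst, a second adaptor gene on the opposite strand. Mertk lies at chr2:128698956-128802894 on the plus strand and overlaps the antisense gene Gm14011. Axl lies at chr7:25757273-25788705 on the minus strand and Megf10 at chr18:57133090-57297467 on the plus strand. Gas6 lies at chr8:13465374-13494490 on the minus strand and overlaps Tmem255b on the plus strand. Pros1 lies at chr16:62854307-62929346 on the plus strand and Mfge8 at chr7:79133768-79149060 on the minus strand. Whether counting used the strand is not given in the sources used here, so reads of Mertk and Gm14011, or of Gas6 and Tmem255b, may share a count.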

How the data were processed

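Both libraries were BD Rhapsody single-cell transcriptomes. The deposited values are counts of unique molecules (UMIs) per cell and gene after RSEC error correction, per the file headers, which name version 1.9.1 of the BD WTA Rhapsody Analysis Pipeline. The submitters' processing notes give the build as GRCm38. Annotation and strand setting: not given in the sources used here. Genes that a table does not list were set to 0.

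The members and lists were chosen with earlier results of these data known. Cells were kept with at least 500 UMIs, 300 genes and at most 25% mitochondrially encoded UMIs, and Scrublet doublets (0.767%) were removed. Scanpy 1.11.5 clustered both libraries together on 2000 variable genes, without the members and listed genes, with 30 principal components, 15 neighbours and Leiden resolution 1.0. A cluster was named when its best marker z-score exceeded the next by 0.5, with at least 3 markers in 10% of its cells. This rule, and the second clustering of 1 mixed cluster of 72 cells, were set after the clusters were seen. Classes had at least 10 cells per library.

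UMIs summed per class gave CPM with exact Poisson intervals. Shares had exact Clopper-Pearson intervals, and ratios exact conditional-binomial intervals. For log2 ratios 0.5 UMIs were added to each sum, and a count of 0 allows up to 3 UMIs. The free RNA share was the median, over marker lists of unrelated classes, of the level in the class divided by the level in the library, applied to the library's profile. Nothing was tested between treatments: there was 1 library of each, and cells are not replicates. Named genes were all members and, of each list, the 3 with the most UMIs in the class where the list summed highest by the mean of both libraries. In a simulation of the microglia-like comparison, the interval held the simulated ratio in 95.5% of 11467 genes, 98.0% of 196 genes changed 2-fold were found at least 1.5-fold apart, and so were 1.81% of unchanged genes. The simulation drew Poisson counts from 1 pooled profile, the model that the interval assumes. It held no spread between cells, clusters, pools or libraries, so it checks the calculation only and gives no error rate for these libraries. Some of the genes ranked as most like a member are not reported here.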

Additional observations from a re-analysis of the deposited data

Results flagged for a closer look

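Tyrobp moved in opposite directions in 2 classes by intervals that exclude 1. Its ratio of FGF21 to vehicle was 1.10 in microglia-like cells and 0.83 in oligodendrocyte precursor-like cells, where free RNA was estimated at 124% of its UMIs. The difference between the classes was not tested.

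Classes with under 10 cells in a library were kept out of the comparisons, and some held members above the level of all used cells. Neutrophil-like cells, 7 in the FGF21 and 5 in the vehicle library, had Tyrobp at 1487 CPM in FGF21 and 2570.2 CPM in vehicle. Axl in neutrophil-like cells of the FGF21 library was 459.6 CPM, from 17 UMIs of which 1 cell gave 10. This class was mixed, with genes of antigen presentation among its leading genes. At Leiden resolution 2.0 a neutrophil-like cluster held 1 FGF21 and 4 vehicle cells. An unnamed cluster led by H2-Aa and H2-Ab1 held 6 FGF21 and 1 vehicle cells. Axl in fibroblast-like cells, 9 in the FGF21 and 19 in the vehicle library, was 153 CPM in FGF21 and 173 CPM in vehicle.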

How the results depend on the processing

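No paired analysis was possible because each treatment had 1 library. The same class led in both libraries for 8 of 8 genes under each alternative cell filter, clustering, scaling and subtraction run, and for 7 of 8 when the border macrophage cluster was kept whole, an alternative chosen after seeing the data. The count of members at least 1.5-fold apart moved as follows. Shares of all genes are not given for free RNA subtraction, the mean of each cell's CPM, resolution 2.0 or the 2-fold limit. Nothing is read from the counts under those settings. With free RNA subtracted it was 2 in oligodendrocyte precursor-like cells (Trem2 and Megf10), 2 in astrocyte-like cells (Trem2 and Mertk) and 2 in mural-like cells (Trem2 and Mertk), where members at or below 0 had no value. With the mean of each cell's CPM it was 2 in astrocyte-like cells (Mertk and Gas6), and at Leiden resolution 2.0 it was 1 in mural-like cells (Tyrobp). In microglia-like cells it was 2 with free RNA subtracted (Axl and Mertk, with no value left for Megf10), 1 at 2-fold (Megf10) and 3 without the cells neuron-like in another clustering, an alternative chosen after seeing the data. Within microglia-like cluster 3, an alternative chosen after seeing the data, it was 5 (Axl, Gas6, Megf10, Trem2 and Tyrobp), and within cluster 11 it was 2 (Axl and Gas6), neither including Mertk. Gas6 was higher in FGF21 in cluster 3 and lower in cluster 11. Of all genes measured, 55.3% and 52.5% were apart within these clusters. Without the neuron-like cells the Mertk ratio within cluster 3 was 0.74, against 1.22. The causes were not tested. The log2 ratio of Mertk in microglia-like cells ranged from -0.64 to -0.60 over the alternative filters, clusterings and scalings. Taking the leading class as the only source of free RNA, 83 of 137 values were over 50% free RNA, against 87. The small classes limit precision: border macrophage-like Gas6 rests on 40 and 62 UMIs.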
